A study of Mus musculus with 98 samples.

Results

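The genes described are 10 genes of endothelial junctions and of the vessel barrier: *Cdh5*, *Esam*, *F11r*, *Jam2*, *Jam3*, *Tjp1*, *Ocln*, *Plvap*, *Gpihbp1* and *Mfsd2a*. They were taken as a named list from 22231 genes of the single-cell age series and 39179 gene IDs of the bulk data. All 10 were found in both. No rule on their values was set, but earlier results of these data were known when they were chosen. Shares of all genes given beside their counts are therefore no test of an unselected list. They were read in the endothelial subtypes EnA (arterial), EnC (capillary) and EnVL (venous and lymphatic) and in the neural crest cells (NCC) of the mouse thymus.

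In the age series, live Ter119-CD45-EpCAM- cells (nonepithelial thymic stroma, NETS) of wild-type C57BL/6 mice were captured at 4 weeks of age (W4), at birth (P0) and at the embryonic age E16.5, with 2 libraries per age, and at the earlier E13.5 and E12.5, with 1 library per age. In the newborn data, Ter119-CD45- cells of P0 mice, fixed with RNAprotect, were captured from 3 *Tbx1*+/-*Crkl*+/- mice, which carry 1 germline *Tbx1* lacZ allele and 1 germline *Crkl* null allele in every cell type, and from 3 wild-type littermates. In the bulk data, live CD45- cells of wild-type mice were sorted at P0 and 4 weeks into CD31+, Ly51+gp38-, gp38+CD26+, gp38+CD26-, cTEC and mTEC populations, with mTEChi and mTEClo at 4 weeks, in 6 libraries per population and age. Nothing in the labels says that libraries of a group came from separate litters or sorts. The p-values thus measure the spread between libraries of a group, which may in part be technical. An age held by 1 library adds nothing to that spread.

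Vessels are closed by adherens junctions, in which *Cdh5* encodes VE-cadherin, and by tight junctions, in which the immunoglobulin-like proteins of *F11r* (JAM-A), *Jam2* (JAM-B), *Jam3* (JAM-C) and *Esam*, the occludin of *Ocln* and the scaffold ZO-1 of *Tjp1* take part. The JAM proteins also guide leukocytes across the vessel wall. *Plvap* encodes the protein of the diaphragms that span endothelial fenestrae and caveolae, *Gpihbp1* the capillary protein that holds lipoprotein lipase, and *Mfsd2a* the lipid transporter known from the tight endothelium of the brain. Thymic vessels admit progenitor cells and let mature T cells leave.

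RefSeq on GRCm38.p6 placed *Cdh5* at chr8:104101613-104144504, *Plvap* at chr8:71497753-71511806, *Esam* at chr9:37528089-37538319, *Jam3* at chr9:27097384-27155421 and *Jam2* at chr16:84774123-84826380. *F11r* lay at chr1:171437561-171464593, *Gpihbp1* at chr15:75596630-75598213, *Tjp1* at chr7:65296165-65527850, *Ocln* at chr13:100496504-100552718 and *Mfsd2a* at chr4:122946850-122961194. RefSeq promoters, from 250 bases before to 50 after the start of a transcript, were at hand for 4 of the 10 genes, namely *F11r*, *Mfsd2a*, *Ocln* and *Tjp1*. They are shown because *Mfsd2a* was nearly absent from endothelium and *Ocln* from endothelium outside EnA, while *F11r* was present in endothelium and epithelium alike. The letters CACCTG, or CAGGTG on the other strand, which are the E-box that Snail and Zeb factors can bind, occurred in the windows of *F11r*, *Mfsd2a* and *Ocln* but not of *Tjp1*, and in 20.2% of all 32851 promoters of this length. Each match is given with 10 bases on each side, in the direction of the gene and with the match in capitals. The *F11r* stretch lay at chr1:171437429-171437454 (+), that of *Mfsd2a* at chr4:122961345-122961370 (-), and those of *Ocln* at chr13:100552696-100552721 and chr13:100552551-100552576 (-).
*F11r*: ttcggggttgCACCTGcgtacggtga
*Mfsd2a*: tcgggcgagtCAGGTGggtttctcag
*Ocln*, first match: atcggagtttCAGGTGaatgggtcac
*Ocln*, second match: aggggctcggCAGGTGggtcccagcg
The letters were thus present in genes with and without endothelial transcripts, and a match was not tested as a binding site.

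The age series held 36208 cells, of which 449 were EnA, 2366 EnC, 838 EnVL and 650 NCC. Endothelial cells per library numbered at most 792 and were fewest at E12.5, with 2429775 to 11470790 summed UMIs and a median of 5587 to 17569 UMIs per cell. Summed UMIs were divided by the library's or subtype's total and scaled to 1000000 (CPM). The markers of endothelium, 7 genes, summed to 3649 to 6337 CPM in the endothelial cells, those of epithelium to 1.65 to 73.9 CPM, those of fibroblasts to 31.3 to 2043 CPM and those of mural cells to 24.3 to 1521 CPM. The haematopoietic markers, 12 genes, summed to 22.5 to 21920 CPM, of which *Hba-a1* and *Hbb-bs*, the 2 haemoglobin genes, held up to 21832 CPM (2.18% of endothelial UMIs). Haemoglobin was at 0.412 and 4.30 CPM at E12.5 and E13.5, at 3685 and 3534 CPM at E16.5, at 107.3 and 16663 CPM at P0 and at 11543 and 21832 CPM at W4. The part of these lists in the changes with age was not tested. Of 3652 endothelial cell barcodes 1 occurred in more than 1 library. Bulk CD31+ libraries held 9131362 to 14827366 gene counts. Library 1 of CD31+ cells at P0 stood apart from the other 5, with 518 against 1493 to 2182 CPM of *Cdh5*, 1562 against 4101 to 4830 CPM of *Plvap* and 94.5 against 4.65 to 28.4 CPM of *Jam3*. Its lymphatic markers summed to 13.96 against 155.1 to 240 CPM and its capillary markers to 20457 against 11873 to 15194 CPM. Library 2 of gp38+CD26+ cells at 4 weeks, with 25702 gene counts, was left out.

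The first question was in which stromal subtypes the genes were found. The subtypes are clusters of the same counts, so their levels are a description, without a test. For 7 of the 10 genes, namely *Cdh5*, *Esam*, *F11r*, *Jam2*, *Tjp1*, *Plvap* and *Gpihbp1*, the mean level in each of the 3 endothelial subtypes exceeded that in each of the 16 others. *Gpihbp1* was at 1854 ± 1102 CPM in EnC, 998 ± 756 CPM in EnVL and 664 ± 527 CPM in EnA (SD over 8 libraries of all ages), against at most 9.68 CPM elsewhere. *Cdh5* was at 785 ± 155.5 CPM in EnA, 751 ± 196 CPM in EnC and 672 ± 118 CPM in EnVL, against at most 25.7 CPM elsewhere. For both genes the highest other mean was that of NCC, which had 7 cells per library at W4. Outside NCC the highest was 7.42 CPM for *Gpihbp1*, in vascular smooth muscle, and 5.27 CPM for *Cdh5*, in capsular fibroblasts (CapFb2b). Within libraries, EnC held more *Gpihbp1* than EnA and EnVL in 8 of 8, while *Cdh5* was higher in EnC than in EnA in 4 of 8.

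*Esam* and *F11r* were shared with a few other stromal cells. *Esam* stood at 765 ± 67.8 CPM in EnA, 698 ± 147.5 CPM in EnC and 631 ± 201 CPM in EnVL, then at 262 ± 153 CPM in vascular smooth muscle (VSM), 203 ± 151.1 CPM in pericytes (Pc) and 108.1 ± 83.7 CPM in mesothelium (Mes). The intervals of mean and SD of VSM and pericytes overlapped. *F11r* stood at 336 ± 55.7 CPM in EnA, 270 ± 85.4 CPM in EnVL and 260 ± 80.2 CPM in EnC, then at 117 ± 36.5 CPM in mesothelium and at most 11.97 CPM elsewhere. *Tjp1* was the least restricted of the 7, with 164.7 ± 53.7 CPM in EnA, 148.2 ± 29.98 CPM in EnC and 116 ± 19.2 CPM in EnVL, against 35.7 to 58.9 CPM in all 16 other subtypes.

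*Plvap* was led by EnVL with 1983 ± 1080 CPM, before EnC with 1237 ± 347 CPM and EnA with 609 ± 348 CPM. The highest other level was 62.3 ± 85.03 CPM, in medullary fibroblasts (MedFb2a). *Jam2* was at 155.4 ± 118.6 CPM in EnA, 147 ± 98.4 CPM in EnVL and 131.6 ± 119.3 CPM in EnC, and next at 26.8 ± 34.1 CPM in capsular fibroblasts (CapFb3). It was higher in EnA than in EnC in 6 of 8 libraries and higher in EnA than in EnVL in 5 of 8.

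*Jam3*, *Ocln* and *Mfsd2a* went against the name endothelial in different ways. *Jam3* was highest in NCC, at 238 ± 39.0 CPM, before VSM with 114 ± 27.5 CPM and pericytes with 113.1 ± 50.4 CPM, and stood at 86.5 ± 61.4 CPM in EnC, 56.7 ± 50.4 CPM in EnVL and 39.0 ± 8.89 CPM in EnA. In the 6 libraries up to P0 *Jam3* lay at 23.4 to 34.7 CPM in EnVL and at 27.1 to 42.5 CPM in EnA. *Ocln* was found mainly in EnA, with 9.75 ± 12.2 CPM, and in every other subtype its mean was under 1 CPM. *Mfsd2a* had 6 endothelial cells with a UMI of 3653, a share of 0.164% (exact binomial 95% interval 0.0603 to 0.357%), and was highest in NCC, at 8.48 ± 14.8 CPM.

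**Figure D1:**
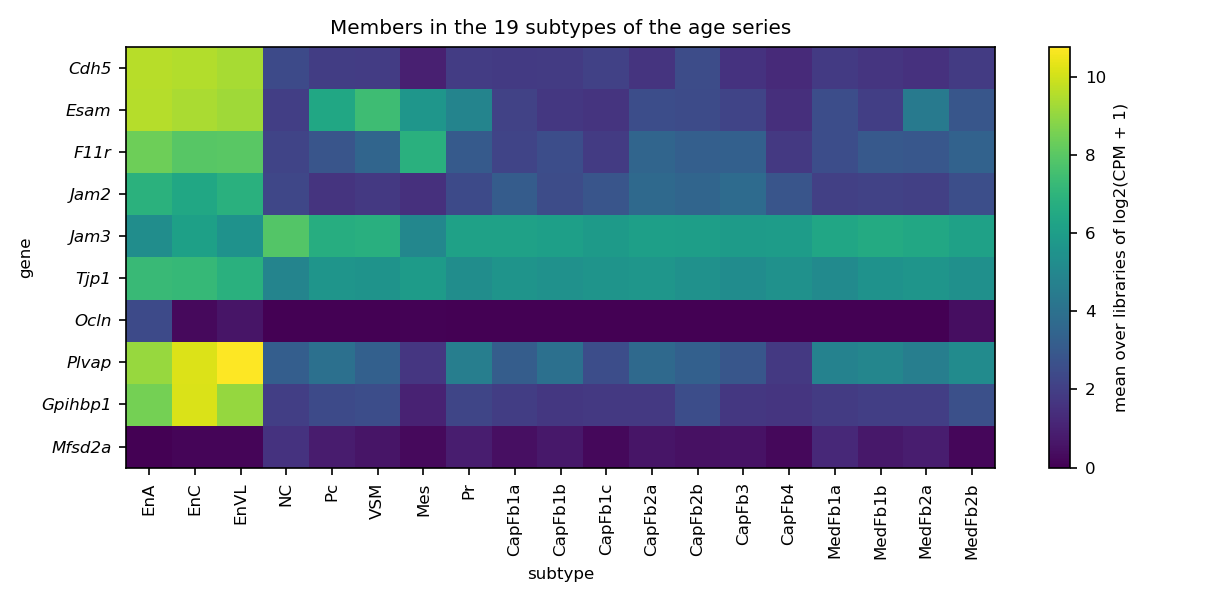
Mean over libraries of log2(CPM + 1) of the 10 genes (rows) in the 19 subtypes of the age series (columns), as colour. Most genes are brightest in EnA, EnC and EnVL at the left, while *Jam3* is brightest in neural crest cells (NC) and *Mfsd2a* is dark in endothelium.

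Shares of cells with a UMI gave the same picture. *Cdh5* was read in 97.0% of endothelial cells (96.4 to 97.5%, 3542 of 3653 cells) at a median of 11311 UMIs per cell. In pericytes, which should lack it, the share was 2.81% at a median of 8445 UMIs, and *Cdh5* shares near that level are read as background. Thinned to 2000 UMIs per cell, which kept 98.7% of endothelial cells, *Cdh5* was still read in 73.7% of them and in 0.682% of pericytes. *Jam3* was read in 88.8% of NCC (86.1 to 91.1%) and 41.0% of endothelial cells (39.4 to 42.6%), and after thinning in 41.2% and 11.1%. *Mfsd2a* was read in 16.8% of NCC (13.98 to 19.9%) and in 3.49% of the medullary fibroblasts MedFb1a, pooled over all ages. Its MedFb1a UMIs lay mainly at E12.5 and E13.5.

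The gene whose mean profile over the 19 subtypes was most like that of *Cdh5*, among 11578 genes, was *Tie1* (Pearson r = 0.996, across subtypes of the same libraries), followed by *Sox18* and *Upp1*. For *Gpihbp1* they were *Zfp366*, *Pik3r6* and *Gimap4*, each with r = 0.993, and for *Plvap* *Grap* (0.979), *Fli1* and *Fgd6*. For *Esam* they were *Vsig2* (0.973), *Cav2* (0.969) and *Cav1* (0.963), the last pair being genes of caveolae. For *F11r* they were *Arhgef5* (0.990), *Tead4* and *Fam189a2*, for *Jam2* *Elmo1* (0.971), *Rnf125* and *Pik3c2b*, and for *Tjp1* *Rabep2* (0.972), *Rasgrp3* and *Cdipt*. For *Ocln* they were *Plcg2* (0.976), *Bmx* and *Slc35g3*, all led by EnA, while *Jam3* (*Rflna*, 0.897, with *Pcnp* and *Snrnp70*) and *Mfsd2a* (*Metrn*, 0.889, with *Pcnp* and *Lrrtm2*) were matched by genes led by NCC.

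The next question was how the genes changed in endothelium with age. All endothelial cells of a library were summed, and edgeR's quasi-likelihood test compared the 5 ages. Of the 10 genes 9 passed the filter on low counts and 8 changed with age (Benjamini-Hochberg adjusted p under 0.05 over all genes), where 60.8% of all 12236 genes did. *Tjp1* was the tested gene that did not pass (adjusted p = 0.0964), and *Mfsd2a* was not tested. The call of *Ocln* was lost with DESeq2 (adjusted p = 0.0674). The early step ran from the mean of the early ages E12.5 and E13.5, fitted as separate ages, to E16.5. Over it 7 genes rose, against 15.8% of all genes, and *Ocln* fell, against 8.35%. Its SE and p-values rest on the spread at E16.5, P0 and W4 and hold none between the early libraries. The early libraries were taken to vary like the later ones. From E16.5 to P0 *Jam2* alone passed, against 28.8% of all genes in either direction. From P0 to W4, 5 genes rose, against 11.5% of all genes, and *Gpihbp1* fell, against 12.7%. Without P0 library 1 or P0 library 2, which leaves 1 library at P0, *Cdh5*, *F11r* and *Gpihbp1* no longer passed. Fewer of all genes passed in each of these fits too. The median log2 fold change of the 9 genes from early ages to E16.5 was 0.62, beside 0.05 over all genes, and from P0 to W4 it was 0.33, beside 0.00. Within EnC, 7 genes changed from the early ages to E16.5, 3 from there to P0 and 4 from P0 to W4, where 21.3%, 22.1% and 20.4% of all genes did in either direction. In EnVL these counts were 6, 1 and 5, where the shares of all genes were 15.2%, 16.1% and 14.6%. The 5 EnVL genes became 3 with DESeq2 or without P0 library 1, and the 1 gene became 3 without the filter on low counts. The 3 EnC genes became 1 without E16.5 library 1 or P0 library 2, and the 4 became 2 without W4 library 1. For EnA the early step was not tested, since 10 cells were held by the E12.5 library, and 2 genes changed from E16.5 to P0 and 2 from P0 to W4, where 4.78% and 9.08% of all genes did. The latter 2 became 1 with DESeq2 or without P0 library 1, W4 library 1 or W4 library 2. The counts under these altered settings are given without the share of all genes called there, so they do not single out the 10 genes. Genes of dissociation stress summed to 2308 and 2482 CPM in endothelium at the early ages, 5554 and 5891 CPM at E16.5, 10991 and 10698 CPM at P0 and 10375 and 8792 CPM at W4, and those of dividing cells to 391 to 1065 CPM in the embryo and 49.02 to 121.9 CPM at P0 and W4. Their part in the changes was not tested.

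*Gpihbp1* went from a low to a high level between E13.5 and E16.5. In EnC it was at 62.4 CPM at E12.5 and 260 CPM at E13.5, then at 2186 and 2013 CPM at E16.5, 2936 and 2916 CPM at P0, and 2106 and 2348 CPM at W4. The early libraries lay far under all 6 later ones, and the P0 libraries above all others. Over all endothelium the rise to E16.5 was 4.42 ± 0.17 on the log2 scale (SE), or 21.5-fold (adjusted p = 5.45e-07). In EnVL it went from 30.6 and 69.4 CPM to 1949 and 1873 CPM, a log2 change of 5.49 ± 0.36 (adjusted p = 2.68e-06). In EnA it went from 56.2 and 23.9 CPM to 1515 and 1102 CPM. The summed capillary markers, which include genes of lipid uptake, rose alongside in EnC, from 1389 and 1808 CPM to 15426 and 14064 CPM.

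After E16.5 the subtypes parted in *Gpihbp1*. In EnA it fell to 297 and 576 CPM at P0 (log2 change -1.68 ± 0.27, adjusted p = 0.00127), and was at 770 and 975 CPM at W4. In EnC it rose by 0.34 ± 0.10 from E16.5 to P0 on the log2 scale (adjusted p = 0.0362) and fell by 0.45 from P0 to W4 (adjusted p = 0.0117). In EnVL it was at 1296 and 1339 CPM at P0 and at 429 and 1000 CPM at W4. The EnVL change from E16.5 to P0 was -0.56 ± 0.28 on the log2 scale (adjusted p = 0.194), and it passed without W4 library 1 (0.0080) or W4 library 2 (0.0079), which enter the estimate of the spread, and without the filter on low counts (4.69e-06). The fall in EnVL (log2 change -0.93 ± 0.28, adjusted p = 0.0491) rested on W4 library 1, without which the change was -0.42 (adjusted p = 0.0715), and it did not pass with DESeq2 (adjusted p = 0.469), with its size factors in edgeR (0.0507) or without P0 library 1 (0.117) or P0 library 2 (0.149). The EnA rise from P0 to W4 (0.89 ± 0.27, adjusted p = 0.046) was lost without P0 library 1 (log2 change 0.49, adjusted p = 0.347), W4 library 1 (0.0769) or W4 library 2 (0.245) and with DESeq2 (0.292). The EnC rise to P0 was lost without any 1 of the E16.5 or P0 libraries (adjusted p = 0.0664 to 0.213) and without the filter on low counts (0.104), and its fall to W4 without W4 library 1 (0.0939). For all endothelium, the fall from P0 to W4 was 0.53 on the log2 scale (adjusted p = 0.0265), was lost without P0 library 1 (0.0598) or P0 library 2 (0.118), and was a change of -0.30 without W4 library 1 (0.124).

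*Plvap* fell in EnA between E16.5 and P0 and rose in EnVL between P0 and W4, when few of its cells held lymphatic markers. In EnVL it was at 1127 and 700.5 CPM at E12.5 and E13.5, at 1934 and 1760 CPM at E16.5, at 1574 and 1553 CPM at P0, and at 3840 and 3373 CPM at W4, so that both W4 libraries exceeded all others. The rise from P0 to W4 was 1.16 ± 0.10 on the log2 scale, or 2.24-fold (adjusted p = 2.12e-05). From E16.5 to P0 the EnVL change was -0.27 ± 0.09 (adjusted p = 0.07995), and -0.35 without the filter on low counts (adjusted p = 0.00656). In EnA it was at 1361 and 509 CPM at E12.5 (10 cells) and E13.5, at 818 and 678 CPM at E16.5, at 308 and 389 CPM at P0, and at 397 and 414 CPM at W4. The EnA fall from E16.5 to P0 was a log2 change of -1.20 ± 0.19 (adjusted p = 0.00127), and the change from P0 to W4 was 0.11 ± 0.20 (adjusted p = 0.785). In EnC it rose by 0.73 ± 0.10 to E16.5 (adjusted p = 0.00117), and from P0 to W4 its log2 change was -0.08 ± 0.10 (adjusted p = 0.633). The venous markers in EnVL, 7 genes, summed to 2298 and 2401 CPM at P0 and to 4317 and 3165 CPM at W4, and the lymphatic ones fell from 265 and 264 to 16.9 and 22.9 CPM. The makeup of EnVL thus moved with *Plvap*, and its part in the rise was not tested.

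*Jam2* rose at every step tested in EnC and over all endothelium, with the early ages taken as their mean. In EnC it was at 27.5 and 19.5 CPM at E12.5 and E13.5, at 53.7 and 43.2 CPM at E16.5, at 144.02 and 150.5 CPM at P0, and at 316 and 298 CPM at W4. From E16.5 on every library lay above all libraries of younger ages. In EnC the log2 changes were 1.16 ± 0.15 to E16.5, 1.47 ± 0.13 from there to P0 and 1.001 ± 0.13 to W4 (adjusted p = 0.000831, 0.000437 and 0.00103). In EnA it went from 130.5 and 154 CPM at P0 to 358 and 311 CPM at W4 (1.13 ± 0.22, adjusted p = 0.00285). In EnVL it was at 160.8 and 258 CPM at P0 and 242 and 268 CPM at W4, so the groups overlapped (0.24 ± 0.21, adjusted p = 0.488). Without P0 library 2 the EnVL change was 0.64 (adjusted p = 0.0396).

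*Jam3* rose in EnC and in EnVL. In EnC it was at 28.7 and 26.9 CPM at the early ages, 42.6 and 57.4 CPM at E16.5, 84.1 and 97.1 CPM at P0, and 173.3 and 181.6 CPM at W4. In EnVL it stayed between 23.4 and 34.7 CPM in the 6 libraries up to P0 and was at 126 and 150 CPM at W4. The EnVL rise was 2.08 ± 0.21 on the log2 scale, or 4.23-fold (adjusted p = 7.98e-05), and the EnC rise 0.91 ± 0.17 (adjusted p = 0.00604). In EnA all 8 libraries lay between 27.1 and 55.1 CPM (change with age, adjusted p = 0.413 over the 7 libraries tested). The mural markers in EnVL, 7 genes, summed to 345 and 222 CPM at P0 and 556 and 853 CPM at W4, and mural cells also held *Jam3*. In EnC they summed to 20.2 and 65.4 CPM at the early ages, 172.8 and 344 CPM at E16.5, 353 and 768 CPM at P0 and 592 and 1314 CPM at W4. The lymphatic markers of EnVL went down over the same step, as given for *Plvap*. The part of either list in the rises was not tested. The EnC step from E16.5 to P0 (0.72 ± 0.17, adjusted p = 0.0168) was lost without E16.5 library 1 (0.0705) or P0 library 2 (0.126). Over all endothelium, the rise to E16.5 (0.76 ± 0.17, adjusted p = 0.0115) was lost without E16.5 library 2 (0.0672), and the change from E16.5 to P0 (0.41 ± 0.16, adjusted p = 0.0894) passed without it (0.0215).

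*Cdh5*, *Esam* and *F11r* moved less. *F11r* in EnC was at 154 and 163.4 CPM at the early ages, 244 and 227 CPM at E16.5, 287 and 282 CPM at P0 and 380 and 346 CPM at W4. In EnC the step to E16.5 passed (0.66 ± 0.09, adjusted p = 0.00130), and those to P0 (0.13 ± 0.09, adjusted p = 0.328) and W4 (0.29 ± 0.09, adjusted p = 0.0589) did not. Over all endothelium it rose by 0.62 ± 0.09 to E16.5 (adjusted p = 0.00113) and by 0.38 ± 0.09 from P0 to W4 (adjusted p = 0.0162), the latter lost without P0 library 1 (0.0698), P0 library 2 (0.0634) or W4 library 2 (0.0612). In EnVL *F11r* rose by 0.53 ± 0.15 from P0 to W4 (adjusted p = 0.0387), which was lost with DESeq2 (0.165), with the replicate block (0.0521) and without any 1 of the E16.5 or P0 libraries or W4 library 2 (0.0789 to 0.173). *Cdh5* in EnC went from 484 and 548 CPM at the early ages to 695 and 650 CPM at E16.5, 843 and 771 CPM at P0, and 995 and 1025 CPM at W4. Its rise over all endothelium from P0 to W4 was 0.30 ± 0.09 (adjusted p = 0.0406) and was lost without any 1 of the libraries of E16.5, P0 or W4 (adjusted p = 0.0675 to 0.131), and its rise to E16.5, 0.48 ± 0.09 (adjusted p = 0.00426), without E16.5 library 1 (0.0688). The *Cdh5* rise to E16.5 was also lost without that library in EnC (0.0530) and EnVL (0.118), and in EnVL without E16.5 library 2 (0.0503), as was that of *F11r* in EnVL without E16.5 library 1 (0.0641). From P0 to W4 *Cdh5* passed in EnC with DESeq2 only (0.0386), and from E16.5 to P0 it passed as lower in EnA without the filter on low counts only (0.0289). *Esam* in EnVL went from 431 and 358 CPM at the early ages to 679 and 636 CPM at E16.5, 535 and 594 CPM at P0 and 886 and 931 CPM at W4. The EnVL steps of *Esam* were 0.87 ± 0.13 to E16.5 (adjusted p = 0.00105) and 0.64 ± 0.13 from P0 to W4 (adjusted p = 0.00653). In EnA *Esam* lay between 687 and 874 CPM in all 8 libraries (change with age, adjusted p = 0.504 over the 7 libraries tested).

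*Tjp1*, the tight junction scaffold, changed with age in EnC (adjusted p = 0.0196), where it was at 166 and 134.4 CPM at the early ages, 121 and 109 CPM at E16.5, 142 and 138 CPM at P0 and 198 and 178 CPM at W4. The call was lost without E16.5 library 2 (0.0729) or W4 library 1 (0.0788). Its rise from P0 to W4 in EnC was 0.37 ± 0.11 (adjusted p = 0.0478), and was lost with DESeq2 (0.147), without the filter on low counts (0.0510) and without any 1 of the E16.5, P0 or W4 libraries (0.0620 to 0.180). In EnA and EnVL its change with age did not pass (adjusted p = 0.232 and 0.116).

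**Figure D2:**
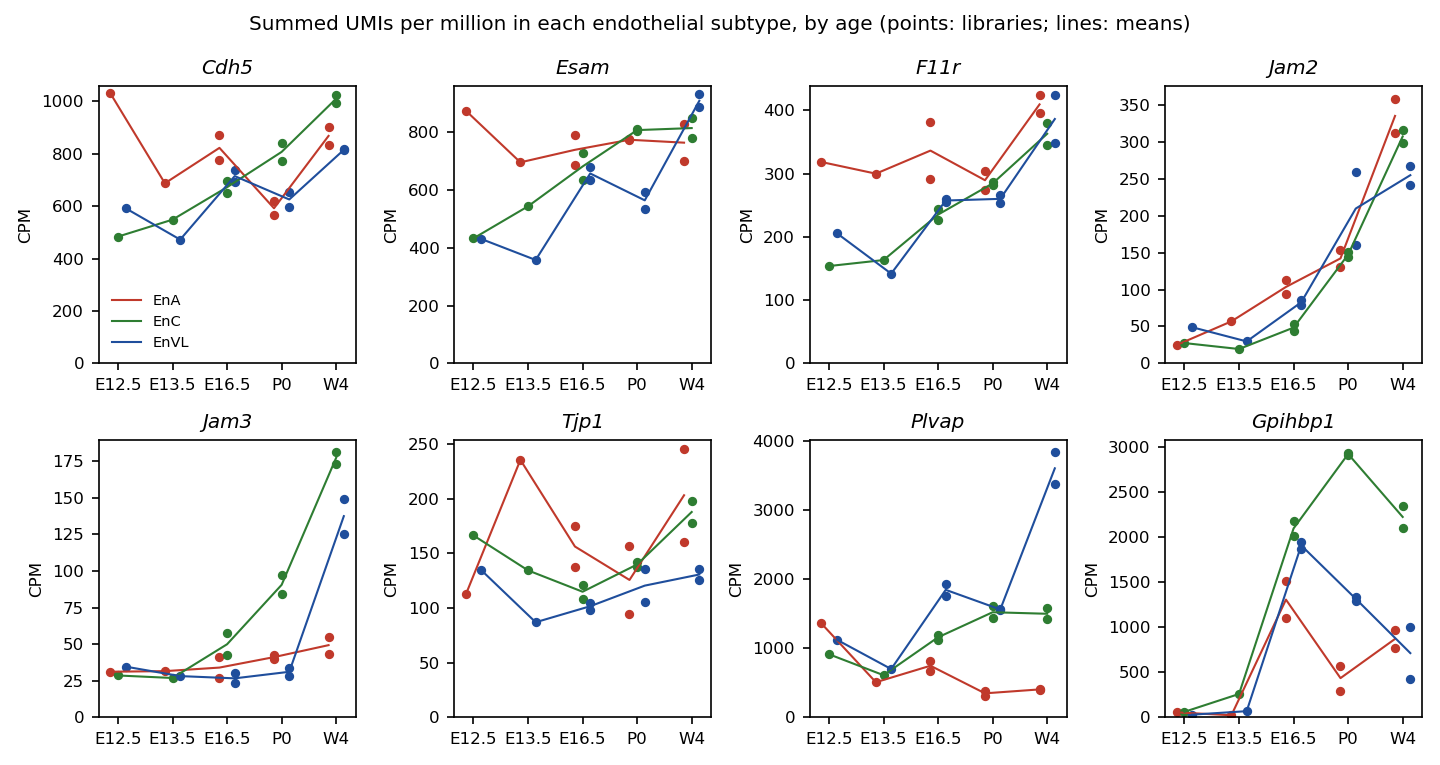
CPM of 8 genes by age in EnA, EnC and EnVL of the age series (points are libraries, lines join means of libraries, each panel has its own linear scale from 0). *Jam2* is higher at W4 than at E16.5 in every subtype, *Jam3* is at most 55.1 CPM in EnA, *Plvap* is highest in EnVL at W4, and *Gpihbp1* is near the axis before E16.5.

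Within subtypes, 4 genes changed with age in EnA (*Cdh5*, *Plvap*, *Jam2* and *Gpihbp1*), 8 in EnC and 7 in EnVL, where 33.6%, 56.3% and 40.5% of all genes tested in each did. The EnA call of *Cdh5* (adjusted p = 0.0435) was lost with DESeq2 (0.0749), with the replicate block (0.0706) and without any 1 of the E16.5, P0 or W4 libraries (0.0502 to 0.169). The difference in change between the subtypes over E16.5, P0 and W4 was tested as an interaction, with the library as a block. It passed for 6 genes, against 9.73% of all genes, with adjusted p-values of 2.82e-07 for *Plvap*, 7.7e-05 for *Gpihbp1*, 0.000604 for *Jam3*, 0.00151 for *Jam2*, 0.0129 for *Esam* and 0.0161 for *Cdh5*. From P0 to W4, the change of *Plvap* in EnVL exceeded that in EnC by 1.20 ± 0.16 on the log2 scale (SE) and that in EnA by 1.002 ± 0.18. *Jam3* rose by 1.12 ± 0.22 more in EnVL than in EnC, and *Esam* by 0.65 ± 0.15 more. For *Jam2* the EnVL change was lower than the EnC one by a log2 difference of -0.79 ± 0.20. From E16.5 to P0 the EnC change exceeded the EnA change by 2.08 ± 0.29 for *Gpihbp1*, 1.495 ± 0.17 for *Plvap* and 0.75 ± 0.15 for *Cdh5*. The *Cdh5* call was lost without E16.5 library 1 (0.249), E16.5 library 2 (0.102) or W4 library 2 (0.0512), the *Esam* call without W4 library 1 (0.143), and both without the library block (0.0854 and 0.0968).

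Cells of EnVL with UMIs of at least 2 of the lymphatic marker genes measured, 80 cells over all ages, were set beside the other 758 as a description, without a test. W4 held 2 of the 80 and 195 of the others, so the cells before W4 are given, 78 with markers and 563 without. *Plvap* was at 938 CPM in the 78 cells and at 1651 CPM in the 563, *Gpihbp1* at 679.9 and 1480 CPM, *Jam2* at 67.1 and 107.9 CPM, and *Cdh5* at 472 and 674 CPM. *F11r* (230.9 and 238 CPM) and *Tjp1* (100.2 and 106 CPM) were closer. At W4 the 2 cells had 78 UMIs of *Plvap* (3711 CPM against 3635 CPM in the others) and 28 of *Gpihbp1* (1332 against 671 CPM), and were too few to be read.

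The neural crest partners of the vessels were then examined. *Jam3* was at 276 CPM at E12.5 (259 cells) and 288 CPM at E13.5 (293 cells), at 212 and 278 CPM at E16.5 (10 cells each), at 184.98 and 206 CPM at P0 (39 and 25 cells) and at 215 and 248 CPM at W4 (7 cells each). All 8 NCC libraries lay above the highest endothelial value of *Jam3*, 181.6 CPM in EnC at W4, the lowest of them at 184.98 CPM. In NCC at W4, 3 counts equal 64.5 and 123.9 CPM, so the values there are too coarse to rank against endothelium. *Mfsd2a* was at 20.6 CPM at E12.5 (64 UMIs) and 40.4 CPM at E13.5 (98 UMIs), and had 1 UMI in all 6 libraries of E16.5, P0 and W4. At P0 its count of 0 allows up to 7.02 and 15.1 CPM (3 counts), which is under both early values. At W4, with 46508 and 24222 UMIs in all, a count of 0 allows up to 64.5 and 123.9 CPM, so a fall was not detectable there. *Mfsd2a* was not particular to NCC at the early ages. In MedFb1a it was at 29.0 CPM at E12.5 (30 UMIs), 6.00 CPM at E13.5 (50 UMIs) and at most 1.08 CPM later. Proliferating cells (Pr) stood at 7.90 and 3.09 CPM at E12.5 and E13.5, and pericytes at 7.60 and 4.49 CPM.

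Between E12.5, E13.5 and P0, the ages with at least 20 NCC per library, 4 of the 10 genes were tested and *Mfsd2a* passed (adjusted p = 8.92e-06), against 12.1% of all genes. *Jam3*, *Jam2* and *Tjp1* did not (adjusted p = 0.605, 0.732 and 0.999). The test had 4 libraries with 1 of each early age, and *Mfsd2a* did not pass with DESeq2 (adjusted p = 0.226). With sums of at least 5 cells and all ages it was removed by the filter on low counts and was not tested. In the main test the 1 residual degree of freedom came from the P0 libraries, both with 0 *Mfsd2a* UMIs. The adjusted p of *Mfsd2a* thus holds no spread between libraries of an age at which the transcript was found. The share of NCC with a *Mfsd2a* UMI was 17.0% at E12.5 (12.6 to 22.1%) and 21.8% at E13.5 (17.2 to 27.0%), and 0 of 64 cells at P0 (up to 5.60%). Thinned to 2000 UMIs per cell, the shares were 4.25%, 7.51% and 0 of 64 cells, which again allows up to 5.60%. The thinned E12.5 share lay under that limit. In endothelium 0 cells held one at E12.5 (up to 2.76%) and 4 of 650 cells at E13.5. NCC at W4 also held endothelial transcripts, with 7 endothelial markers summing to 1484 CPM in library 1 and 289 CPM in library 2, against 24.5 to 124.5 CPM in the other 6 libraries. *Cdh5* was at 150.5 and 41.3 CPM in them, and *Esam* at 237 and 0 CPM.

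*Ocln* was an early arterial transcript in these data. In EnA it had 5 UMIs in 10 cells at E12.5 (31.2 CPM) and 37 UMIs in 140 cells at E13.5 (25.998 CPM), against 1 and 5 UMIs at E16.5, 0 and 3 at P0 and 1 and 0 at W4. Of EnA cells 23.6% held a UMI at E13.5 (16.8 to 31.5%), 6.74% at E16.5 (2.51 to 14.1%) and 0.667% at W4 (0.0169 to 3.66%), at median depths of 9737, 12313 and 5208.5 UMIs. Thinned to 2000 UMIs, 6.43% of the E13.5 cells held one, and 0 cells at E16.5 and at W4, which allows up to 4.11% and 2.49%. The exact binomial interval of the 6.43% reaches below 4.11%, so at this depth the intervals of E13.5 and E16.5 overlap. Over all endothelium it was lower at E16.5 than before (log2 change -3.04 ± 0.73, adjusted p = 0.0155), which was lost without E16.5 library 1 (0.0599) and with DESeq2 (0.116). EnA made up 7.58% and 21.5% of endothelial cells at E12.5 and E13.5 and 5.34% and 6.94% at E16.5. The makeup of the sums thus moved with *Ocln* from E13.5 to E16.5, while the E12.5 share was near those of E16.5. Over all endothelium *Ocln* was at 3.70 and 4.41 CPM at E12.5 and E13.5 and 0.210 and 0.610 CPM at E16.5. The part of the makeup in the fall was not tested. Within EnA the change with age had an adjusted p of 0.0523, and passed without P0 library 1 (0.0181) or 2 (0.0122), with the replicate block (0.0463), with sums of at least 5 cells (0.0488) and without the filter on low counts (0.000237). The epithelial markers in EnA, 10 genes, summed to 18.7 CPM at E12.5 and 170 CPM at E13.5, and to 9.89 to 68.7 CPM at later ages. Their part in the level of *Ocln* was not tested.

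**Figure D3:**
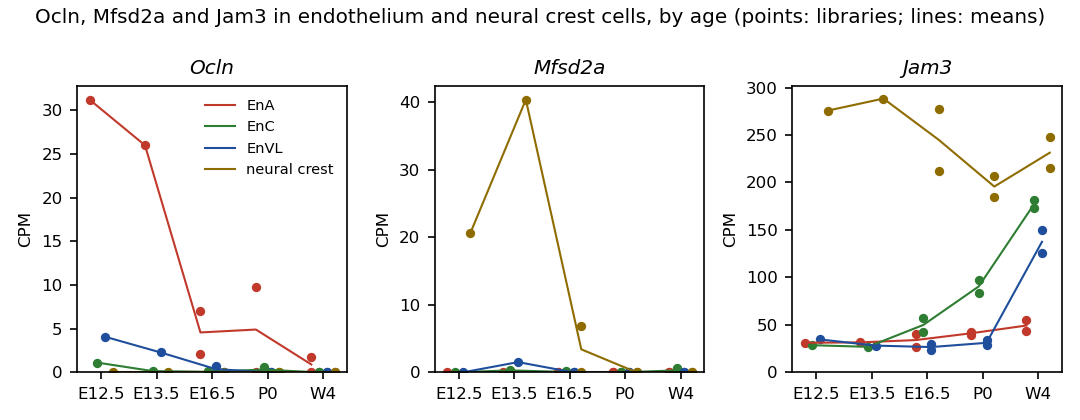
CPM of *Ocln*, *Mfsd2a* and *Jam3* by age in EnA, EnC, EnVL and neural crest cells (points are libraries, lines join their means, linear scales from 0). *Ocln* is seen mainly in EnA at E12.5 and E13.5, and *Mfsd2a*, of the subtypes shown, mainly in neural crest cells at the same ages. The mean of *Jam3* is higher in neural crest cells than in any endothelial subtype at each age. At W4 the neural crest points rest on 7 cells each.

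The bulk libraries of sorted cells give a second reading that does not depend on the clusters. In bulk, a smaller part of the cells holding a transcript and less of it per cell cannot be told apart. Against the mean of the other 3 NETS populations, 8 genes were higher in CD31+ cells at P0 and 8 at 4 weeks, where 17.1% and 12.9% of all genes were. *Ocln* is among the 8 at both ages, although it was at 0 in most CD31+ libraries and at or near 0 in the others, so no fold is given for it. At P0 all 3 CD31+ libraries with the prefix TXCK were at 0, and the call was lost within TXCK. At 4 weeks it was lost within DFCK (adjusted p = 0.130). *Plvap* was at 4005 ± 1234 CPM (SD, n = 6) in CD31+ cells at P0 and at 3.63 to 18.1 CPM in the means of the others (adjusted p = 1.52e-18). *Esam* stood at 1419 ± 130 CPM in CD31+ cells and at 467 ± 69.5 CPM in Ly51+gp38- cells, the population rich in mural markers. *Tjp1* was at 173.3 ± 33.6 CPM against 22.7 to 29.6 CPM (log2 difference 2.67 ± 0.31, adjusted p = 2.21e-08). *Jam3* was the exception, with 33.6 ± 31.1 CPM in CD31+ cells at P0. The gp38+CD26+ level was 59.1 ± 16.6 CPM, that of gp38+CD26- cells 84.9 ± 24.2 CPM and that of Ly51+gp38- cells 94.4 ± 22.2 CPM (log2 difference -1.30 ± 0.53, adjusted p = 0.0597). Without CD31+ library 1 that difference was -1.95 (adjusted p = 0.00727), with DESeq2 it was -1.33 (0.024), and with the title prefix as a term -1.43 (0.0354). At 4 weeks *Jam3* stood at 102 ± 29.7 CPM in CD31+ cells and its difference was 0.51 ± 0.70 (adjusted p = 0.742).

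Epithelium shared *F11r* and held *Ocln*. *F11r* in mTEC was at 412 ± 58.3 CPM at P0 and 1086 ± 157 CPM at 4 weeks, in cTEC at 189 ± 48.9 and 262 ± 33.8 CPM, and in CD31+ cells at 1385 ± 313 and 1740 ± 200 CPM. CD31+ cells exceeded the mean of both epithelial populations by 2.33 ± 0.52 on the log2 scale at P0 (adjusted p = 0.000457, and 0.0529 within TXCK) and by 1.78 ± 0.22 at 4 weeks (adjusted p = 7.42e-08). *Ocln* was at 110 ± 36.8 CPM in mTEC and 42.2 ± 15.9 CPM in cTEC at P0, and at 85.96 ± 21.9 and 6.15 ± 3.96 CPM at 4 weeks. In CD31+ cells *Ocln* was at 0 in 4 of 6 libraries at each age and reached at most 7.01 CPM at P0 and 7.27 CPM at 4 weeks. It was lower than in epithelium at P0 (adjusted p = 0.000706), where 23.7% of all genes were, and did not pass at 4 weeks (adjusted p = 0.0689; 0.0403 without CD31+ library 2). Against epithelium 8 of the genes were higher in CD31+ cells at P0 and 8 at 4 weeks, where 18.1% and 14.7% of all genes were. *Mfsd2a* had 0 counts in all 12 CD31+ libraries, which allows at most 0.202 to 0.329 CPM by library, and 3.51 ± 2.42 CPM in mTEC at P0.

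Between P0 and 4 weeks, 3 of the 8 genes tested in CD31+ cells passed, *Jam2* and *Plvap* upwards and *Gpihbp1* downwards, where 3.19% of all genes rose and 1.91% fell. *Jam2* ranged from 188 to 277 CPM at P0 (median 249.1) and from 455 to 709 CPM at 4 weeks (median 592). The groups did not overlap, and the rise was 1.39 ± 0.16 on the log2 scale, or 2.63-fold (adjusted p = 0.000115). How many of all genes had no overlap between the ages was not counted. *Plvap* ranged from 1562 to 4830 CPM at P0 (median 4354) and from 5800 to 9127 CPM at 4 weeks (median 7059), also without overlap. Its rise of 0.95 ± 0.24 (adjusted p = 0.0334) did not pass without any 1 of P0 libraries 3, 4 and 5 or of 4-week libraries 2 to 6 (adjusted p = 0.0508 to 0.0725). *Gpihbp1* ranged from 730 to 2193 CPM at P0 (median 1366) and from 314 to 660 CPM at 4 weeks (median 561), again without overlap, a log2 change of -1.28 ± 0.29 (adjusted p = 0.0205).

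*Jam3* ranged from 4.65 to 94.5 CPM at P0 (median 26.1) and from 70.8 to 157 CPM at 4 weeks (median 93.1). Only P0 library 1 overlapped the 4-week libraries. The log2 change was 1.71 ± 0.50 (adjusted p = 0.0682), and 2.32 without that library (adjusted p = 0.00309). *F11r* likewise passed without it (0.55, adjusted p = 0.00568) but not with it (0.43 ± 0.14, adjusted p = 0.0991), and both passed with DESeq2 (0.00874 and 0.0107). *Cdh5* (log2 change -0.04 ± 0.27), *Esam* (-0.03 ± 0.11) and *Tjp1* (-0.47 ± 0.18, adjusted p = 0.186) did not pass with edgeR. The mural markers in CD31+ libraries summed to 51.3 to 162.7 CPM at P0 and 673 to 1840 CPM at 4 weeks, against 89482.5 to 115198 CPM in Ly51+gp38- cells at 4 weeks, whose *Jam3* was 107.4 ± 28.3 CPM. The venous markers summed to 806 to 1802 CPM at P0 and 7607 to 9727 CPM at 4 weeks. Haematopoietic markers were at 19.3 to 275 CPM at P0 (median 47.1) and 206 to 5471 CPM at 4 weeks (median 2054). Genes of dissociation stress were at 6359 to 13958 and 1616 to 6567 CPM, and those of dividing cells at 417 to 922 and 76.3 to 293 CPM. The part of any of these lists in the changes of *Jam2*, *Jam3*, *Plvap* or *Gpihbp1* was not tested.

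The bulk labels carry the prefix TXCK or DFCK, 3 libraries of each per age. Within TXCK the mean of *Jam2* went from 227 ± 45.3 to 609 ± 53.1 CPM (SD, n = 3) and within DFCK from 258 ± 18.5 to 582 ± 127.2 CPM. *Plvap* went from 3538 ± 1738 to 7289 ± 875 CPM and from 4472 ± 363 to 7265 ± 1698 CPM, and *Gpihbp1* from 1154 ± 586 to 513 ± 179.2 CPM and from 1676 ± 751 to 575 ± 39.4 CPM. Directions held within both prefixes. *Jam2* did not pass within DFCK (adjusted p = 0.0645), *Plvap* and *Gpihbp1* within neither (0.387 and 0.482 in TXCK, 0.142 and 0.102 in DFCK), and with 3 libraries per age 1 gene passed within TXCK and 0 within DFCK, where 59 and 88 of all genes did.

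**Figure D4:**
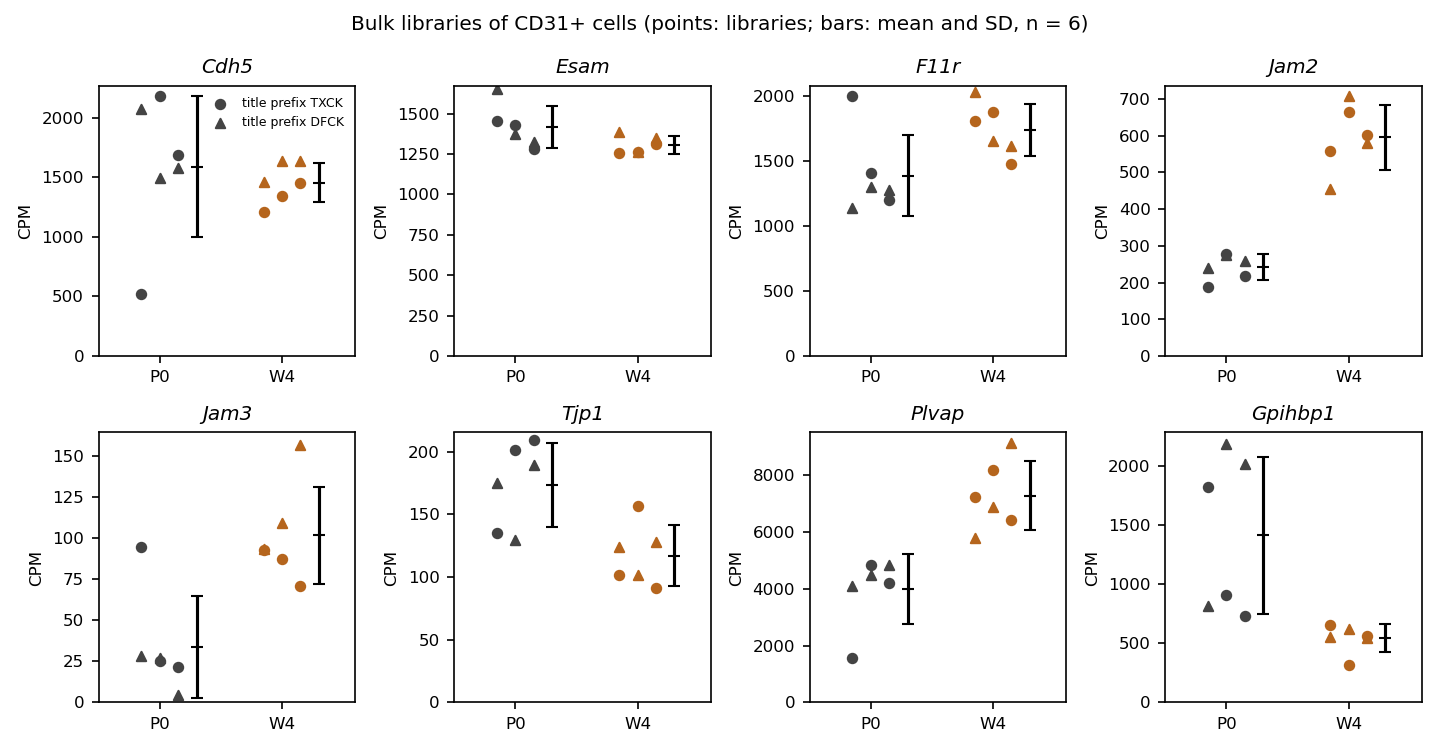
CPM of 8 genes in bulk libraries of CD31+ cells at P0 and W4 (circles TXCK, triangles DFCK, bars mean and SD of 6 libraries, linear scales from 0). *Jam2*, *Plvap* and *Gpihbp1* do not overlap between the ages, and the lowest P0 circle of *Cdh5* and *Plvap* and the highest of *Jam3* and *F11r* is library 1.

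Set side by side, the changes from P0 to W4 had the same sign in bulk CD31+ cells and in all endothelial single cells for *Jam2* (1.39 and 0.76), *Jam3* (1.71 and 1.07), *Plvap* (0.95 and 0.42), *F11r* (0.43 and 0.38) and *Gpihbp1* (-1.28 and -0.53). The signs differed for the other 3 genes. *Tjp1* had a log2 change of -0.47 ± 0.18 in bulk and 0.33 ± 0.12 in single cells, and passed in neither, while without the filter on low counts the single-cell change passed (adjusted p = 0.0446). *Cdh5* had -0.04 ± 0.27 in bulk and 0.30 ± 0.09 in single cells, where it passed, and *Esam* -0.03 ± 0.11 and 0.15 ± 0.10. No test set the data types against each other.

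**Figure D5:**
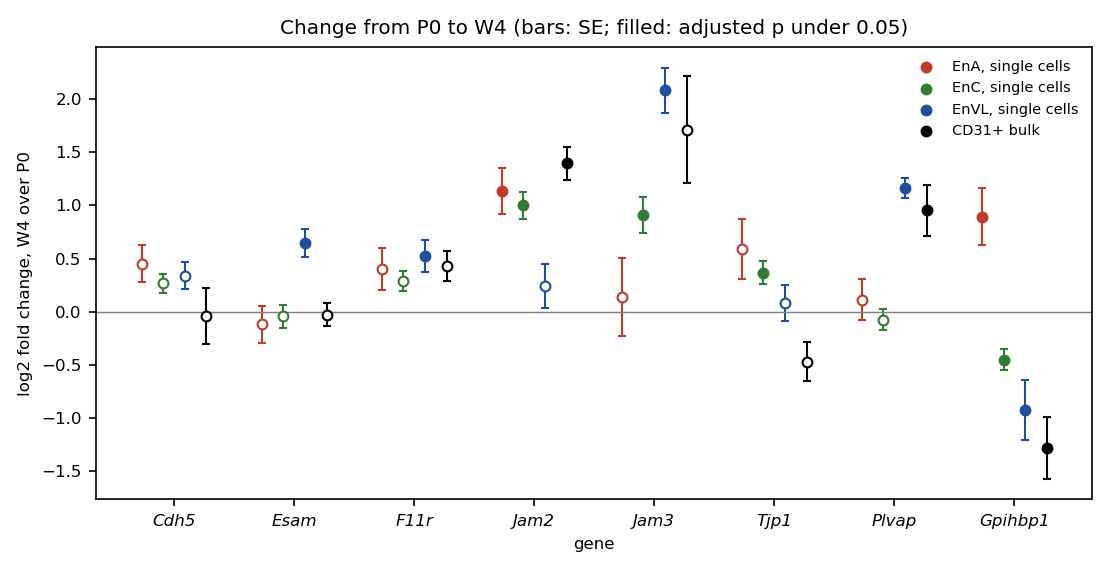
Log2 fold change from P0 to W4 with its SE for 8 genes in EnA, EnC and EnVL of the age series and in bulk CD31+ cells (filled symbols had an adjusted p under 0.05). *Jam2* lies above 0 in all, *Plvap* is raised in EnVL and bulk, and *Gpihbp1* lies below 0 in EnC, EnVL and bulk and above it in EnA.

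Other genes of the junction and barrier pathways were counted from lists. In bulk CD31+ cells between P0 and 4 weeks, where 1.91% of all genes fell, 1 of the 10 other tight junction genes tested passed, *Cldn5*, the main endothelial claudin, which fell from 2241 ± 669 to 1244 ± 144.2 CPM (log2 change -0.74 ± 0.19, adjusted p = 0.0385). In the single cells its change from P0 to W4 was -0.42 ± 0.19 (adjusted p = 0.15). There 4 of 13 tight junction genes passed, 1 upwards and 3 downwards, where 11.5% of all genes rose and 12.7% fell. Of 9 adherens junction genes 0 passed in bulk with edgeR (3 at an unadjusted p under 0.05, 2 with DESeq2), and 4 of 12 rose in the single cells, where 11.5% of all genes did. For this list and those below, counts at an unadjusted p and with DESeq2 are given without the share of all genes. They thus do not single out a list. *Podxl*, which encodes podocalyxin of the luminal surface, rose in both (0.99 ± 0.18 and 1.16 ± 0.12, adjusted p = 0.00505 and 0.000214), as did *Ehd4* of the caveola list (1.18 ± 0.21 and 0.65 ± 0.16), *Slc3a2*, an amino acid transporter subunit (1.18 ± 0.30 and 1.21 ± 0.10), and *Angpt2*, the angiopoietin of vessel remodelling (2.26 ± 0.42 and 1.79 ± 0.25). *Gja5*, an arterial connexin, rose in bulk (1.52 ± 0.26, adjusted p = 0.00275) and had a change of 0.24 ± 0.26 in single cells (adjusted p = 0.554). Each was the 1 gene of its list called in bulk, of 6 leukocyte passage genes with *Podxl*, 7 caveola genes, 6 barrier transport genes with *Slc3a2*, 12 sprouting genes with *Angpt2* and 4 gap junction genes. Of all genes 3.19% rose in bulk. In the single cells 3 of 7 leukocyte passage genes rose, 5 of 7 caveola genes rose, and 4 of 10 barrier transport genes rose and 2 fell. Of 12 sprouting genes 5 rose and 2 fell, and 1 of 4 gap junction genes fell. In that comparison 11.5% of all genes rose and 12.7% fell. Of the capillary lipid handling genes 0 of 8 passed in bulk with edgeR (4 at an unadjusted p under 0.05, 2 with DESeq2), while in single cells from the early ages to E16.5, 7 of 9 rose, with a median log2 change of 3.71, and 7 of 7 caveola genes, with a median of 1.32. Over that step 15.8% of all genes rose and 8.35% fell, and their median was 0.05. Of 13 other tight junction genes 2 rose and 4 fell there (median -0.315), and of 4 gap junction genes 1 rose and 2 fell (median -0.895). The medians of the remaining lists lay between -0.287 and 0.347. Of the integrin and polarity partners of the JAMs, 0 of 5 passed in bulk with edgeR (1 at an unadjusted p under 0.05, 0 with DESeq2) and 2 of 6 in the single cells from P0 to W4, 1 in each direction, where 11.5% of all genes rose and 12.7% fell.

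The last comparison was that of genotypes. Endothelial cells numbered 152, 368 and 280 in the *Tbx1*+/-*Crkl*+/- libraries and 205, 178 and 482 in the wild-type ones, with a median of 2107 to 3261 UMIs per cell. None of the 8 genes tested passed in edgeR's test or with DESeq2, where 0.0126% of all genes, 1 of 7957, passed in edgeR. With an unadjusted p under 0.05 there were 0 of the 8 with either. Of all genes, 273 of 7957 had one in edgeR and 154 of 17739 with DESeq2, so 0 of 8 does not set these genes apart. *Plvap* was at 897, 737 and 346 CPM in the mutant and 648, 768 and 929 CPM in the wild-type libraries, and *Cdh5* at 1070, 790 and 714 CPM and 853, 1028 and 1001 CPM. The groups overlapped for both genes. *Jam2* was at 81.1, 97.3 and 83.9 CPM in the mutant and at 123, 112.8 and 99.97 CPM in the wild-type libraries, with a log2 difference of -0.34 ± 0.23 (adjusted p = 0.999). Its groups did not overlap, but how many of all genes had no overlap was not counted, so this does not single out *Jam2*. *Jam3* in NCC, with 6 to 20 cells per library, was at 484, 183 and 251 CPM in the mutant and 333, 351 and 211 CPM in the wild-type libraries. The SE of the 8 log2 differences were 0.23 to 0.30.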

How the data were processed

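The authors made the single-cell UMI counts with Cell Ranger 3.1.0 and deposited them as whole counts per gene and cell, after their filters and doublet removal, with a subtype label per cell. The deposited bulk values are whole read counts per Ensembl gene. The submitters' notes name STAR 2.5.3a, HTSeq and mm10. Of 39179 bulk IDs 37607 had a symbol, and the other IDs held 0.412% of counts. Entries of no gene (7.81 to 29.4% of reads) were left out.

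UMIs were summed per subtype and library. Sums of at least 20 cells entered tests, those of at least 5 cells the levels. Libraries under 1000000 bulk counts were left out. Counts were tested with edgeR 4.0.16 (filterByExpr, TMM, quasi-likelihood F test, Benjamini-Hochberg over all genes, threshold 0.05), with DESeq2 as an alternative. The scripts were tested on simulated data. Bulk fits against other populations weighted the populations equally. Contrasts of neighbouring ages within subtypes were read from the same fits and were added after the data were seen. Intervals of shares are exact binomial and cover counting error only. Thinning drew 2000 UMIs per cell. Likeness used the mean log2(CPM + 1) over libraries of genes reaching 10 CPM in a subtype.

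The members and lists were chosen with earlier results of these data known. Besides the members, up to 2 genes per list with the largest change past the threshold between P0 and 4 weeks in bulk CD31+ cells were named, and the 3 genes most like each member. Strand of counting is not given in the sources used here. The age series does not list *Mmrn1*, so 4 of 5 lymphatic markers were read there. Fixed by RNAprotect and shallower, the newborn data were not compared with the age series.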

Additional observations from a re-analysis of the deposited data

Results flagged for a closer look

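Of 60 bulk groups examined, 11 held a library whose gap to the nearest of the others was large for the range of its group. Chance gives about 1 in 20 for independent groups of normally distributed values. Here groups of different genes share libraries and some have low CPM, so the 11 cannot be tested against that share. Library 1 of CD31+ cells at P0 stood out in 3 genes, with 1995 CPM of *F11r* (group median 1290), 94.5 CPM of *Jam3* (26.1) and 1562 CPM of *Plvap* (4354). In CD31+ cells at 4 weeks, library 5 held 314 CPM of *Gpihbp1* (561). *Esam* was at 381 CPM in Ly51+gp38- library 5 at 4 weeks (475) and at 54.7 CPM in cTEC library 6 at 4 weeks (7.42). *Ocln* was at 73.1 CPM in cTEC library 5 at P0 (37.1) and at 181 CPM in mTEC library 4 at P0 (102). In gp38+CD26+ cells, *Jam2* was at 45.8 CPM in P0 library 6 (9.35), *Tjp1* at 52.8 CPM in P0 library 4 (21.7) and *Plvap* at 43.02 CPM in library 3 at 4 weeks (9.90).

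The change over E16.5, P0 and W4 differed between EnA, EnC and EnVL for 6 genes by edgeR's interaction test, with adjusted p-values of 2.82e-07 for *Plvap*, 7.7e-05 for *Gpihbp1*, 0.000604 for *Jam3*, 0.00151 for *Jam2*, 0.0129 for *Esam* and 0.0161 for *Cdh5*. *Cdh5* and *Esam* did not pass in every fit with a library left out.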

How the results depend on the processing

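No change called in edgeR or under an alternative had the opposite sign in the other. *Ocln* had no direction against the other NETS at P0 within TXCK, where its CD31+ counts were 0. Apart from the fits that leave out a library, 950 values of single genes kept their side of the threshold, 24 lost it and 13 gained it. With a library left out these numbers were 1097, 63 and 10. In the replicate block fit, 2 genes passed from E16.5 to P0 (*Jam3* added), and leaving out a library gave 1 to 2. From P0 to W4 in all endothelium leaving out a library gave 3 to 5 genes, and the block 5 (*Cdh5*, adjusted p = 0.0603). In NCC 0 genes passed with DESeq2 (391 of all genes called) and 0 with sums of at least 5 cells, where *Mfsd2a* was not tested. In bulk CD31+ cells 5 genes passed with DESeq2, 1 within TXCK and 0 within DFCK, and 2 to 5 with a library left out. All genes called there numbered 577 in edgeR, 1562 with DESeq2, 59 and 88 within the prefixes. The interaction called 1011 genes, 492 without the library block and 507 to 1286 with a library left out. The genotype comparison called 1 gene, 16 without the filter and 0 to 8 with a library left out. In EnVL cells with at least 1 lymphatic marker the log2 difference of *Gpihbp1* to the other cells was -0.39, against -0.93 with 2, and -1.12 with 2 in the cells before W4, an alternative chosen after seeing the data. Libraries of the same number correlated at 0.0461, 0.177 and 0.0379 in the age series. In the newborn data the values were 0.0943, -0.0177 and -0.274, so the numbers were not taken to pair libraries. With the block 0 of the members and 1 of all genes passed between genotypes. For NCC, fits with a library left out and with the block were not run, since 1 residual degree of freedom was left.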
